A study of Bos taurus with 6 samples.

Results

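The citric acid cycle enzymes described here were 9 genes selected by symbol: CS, IDH3A, IDH2, OGDH, SUCLG1, SDHA, SDHB, FH and MDH2. They were chosen with earlier results of these data known. Of the 9 genes, 7 had a row among the 25444 genes of the mRNA count table, and IDH2 and SDHA were not analysed here. The tissue was intramuscular fat (IMF) cut from the sternomandibularis muscle of male Chinese Qinchuan cattle at 24 months of age, on a shared diet after weaning at 3 months. Steers (CM) had been surgically castrated at 6 months, and bulls (IM) were left intact. Each group was 1 sequencing library of pooled RNA, from 6 animals according to the design text and from 3 according to the sample labels, and all animals were sired by the same bull. The pools had no replicates, so every difference below lies between 2 libraries, carries counting error only and has no replicate check. In bulk tissue, fewer cells of a type and less RNA per cell cannot be told apart.

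The cycle runs in the mitochondrial matrix, where it oxidises the acetyl group of acetyl-CoA and hands the electrons to the respiratory chain. Citrate synthase (CS) opens it by joining acetyl-CoA to oxaloacetate, isocitrate dehydrogenase and the 2-oxoglutarate dehydrogenase complex release the carbon dioxide, and malate dehydrogenase (MDH2) closes it. In fat cells some citrate leaves the mitochondrion and is cut back to acetyl-CoA for fatty acid synthesis, so the same enzymes stand beside the pathway that makes fat.

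The counts summed to 12677375 in steers and 9868415 in bulls. Levels below are counts divided by these totals and multiplied by 1000000 (CPM), with 95% Clopper-Pearson intervals that cover counting error alone, since reads are not independent molecules. Fold changes are steers over bulls after scaling with median-of-ratios size factors, 1.04 for steers and 0.959 for bulls, and a log2 fold change of 1 is 2-fold. Scaling by total counts lowers each log2 fold change by 0.24 and puts the median of all genes at -0.23 instead of 0.01. In the steers library 12.6% of all counts fell on 10 fibroblast and matrix genes, against 7.39% in bulls. A gene is said to rise or fall where the exact binomial test on its pair of counts passed an adjusted p of 0.05 over all 17752 genes with a count, which means past counting error and no more. Gene lengths were not used, so CPM values compare a gene between libraries and never gene with gene.

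Cycle enzyme mRNAs were slightly more frequent in steers relative to the typical gene, and FH was the member that was not. No member differed by 2-fold, compared with 4.64% of all tested genes that were over 2-fold higher in steers and 8.45% that were over 2-fold lower. CS, IDH3A, OGDH, SUCLG1, SDHB and MDH2 rose, 6 of 7, beside 20.4% of all genes, and 0 fell, beside 18.9%. The median log2 fold change of the members was 0.36, and their range was 0.01 to 0.43. The share of genes past counting error grows with the counts, and among the 8010 genes with 100 counts or more in both libraries, where all 7 members lie, it was 33.0% for a rise. The direction rests on the scaling: with total counts the median was 0.12, 5 of 7 members lay above 0, and OGDH, SUCLG1 and MDH2 rose while FH fell. An edgeR exact test that assumed a coefficient of variation of 0.2 between pools called 0 of 7 members at any fold, and 0 had an unadjusted p under 0.05, while 2.07% of all genes were called higher.

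**Figure D1:**
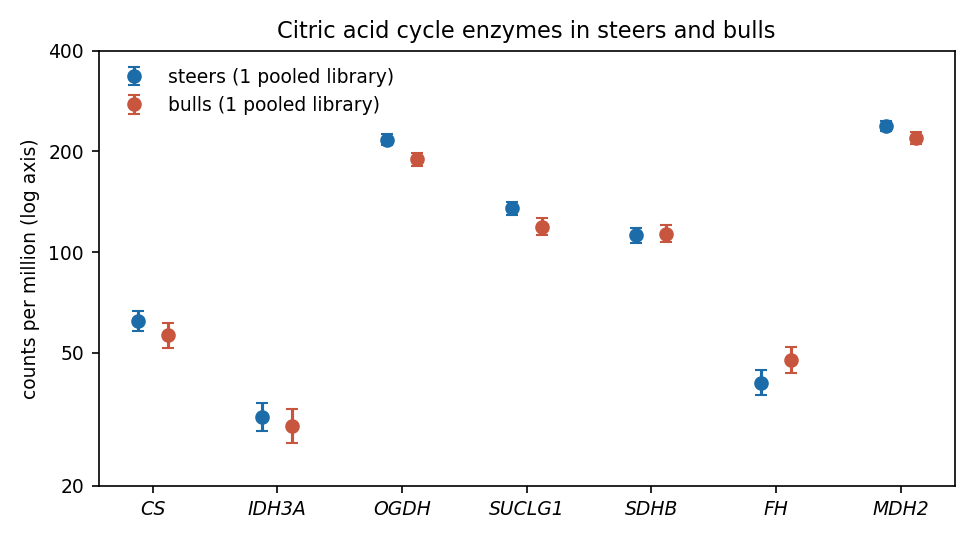
CPM (log axis) of the 7 measured citric acid cycle enzymes in the pooled library of steers (blue) and that of bulls (red), with 95% counting intervals. OGDH, SUCLG1 and MDH2 are higher in steers without overlap of their intervals, those of SDHB overlap almost wholly, and FH is lower in steers, at 40.7 against 47.6.

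CS, the citrate-forming enzyme whose activity is a common gauge of mitochondrial content, had 789 counts in steers against 556 in bulls. These are 62.2 CPM (58.0 to 66.7) and 56.3 CPM (51.8 to 61.2), intervals that overlap. Its log2 fold change was 0.38 (95% interval 0.22 to 0.54), or 1.30-fold, and 0.14 (-0.01 to 0.30) with total counts.

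IDH3A encodes the catalytic subunit of the NAD-dependent isocitrate dehydrogenase, in which the IDH3B and IDH3G subunits assist and regulate it. It had the fewest counts of the members, 407 in steers and 298 in bulls, or 32.1 CPM (29.1 to 35.4) and 30.2 CPM (26.9 to 33.8). The log2 fold change of IDH3A was 0.33 (0.11 to 0.55), and 0.09 (-0.13 to 0.31) with total counts. IDH3B rose by 0.53 (0.40 to 0.67) from 740 to 1165 counts, and IDH3G by 0.49 (0.39 to 0.60) from 1117 to 1713. All 3 subunit genes of this enzyme rose, and with total counts IDH3B and IDH3G still did. The ratio of IDH3A to IDH3B was 0.349 in steers and 0.403 in bulls, a log2 odds ratio of -0.20 (-0.46 to 0.05), so a difference between the subunits was not detectable at this depth.

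OGDH, the first enzyme of the 2-oxoglutarate dehydrogenase complex, had the largest fold change of the 7. It had 2751 counts in steers against 1871 in bulls, or 217 CPM (209 to 225) and 190 CPM (181 to 198), intervals that do not overlap. Its log2 fold change of 0.43 (0.35 to 0.52) is 1.35-fold (1.27 to 1.43), and it was 0.19 (0.11 to 0.28) with total counts. DLST, the core transferase of the complex, rose by 0.53 (0.41 to 0.66) from 858 to 1353 counts. DLD, the dihydrolipoamide dehydrogenase that this complex shares with pyruvate dehydrogenase, was at 0.23 (-0.03 to 0.50) with 269 and 210 counts and did not pass. OGDHL, a relative of OGDH best known from brain, had 0 counts in both libraries, where 3 counts, the limit that a count of 0 allows, are 0.237 CPM in steers and 0.304 CPM in bulls.

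SUCLG1, the alpha subunit common to both forms of succinyl-CoA ligase, had 1712 counts in steers against 1175 in bulls. That is 135 CPM (129 to 142) against 119 CPM (112 to 126), without overlap. The log2 fold change was 0.42 (0.31 to 0.53), and 0.18 (0.07 to 0.29) with total counts. Its beta partners set the nucleotide that the enzyme makes, SUCLA2 for ATP and SUCLG2 for GTP, and they went opposite ways under this scaling. SUCLA2 rose by 0.43 (0.17 to 0.70) from 203 to 298 counts. SUCLG2 fell by 0.27 on the log2 scale (-0.45 to -0.08), at 452 counts in steers against 500 in bulls, and was the only 1 of the 14 cycle genes reported here that fell under this scaling. With total counts SUCLA2 was at 0.19 (-0.07 to 0.46) and SUCLG2 at -0.51 (-0.69 to -0.32). The ratio of SUCLA2 to SUCLG2, from which the library scaling cancels, was 0.659 in steers and 0.406 in bulls, an odds ratio of 1.62 (1.30 to 2.03). The ratio of SUCLG1 to SUCLA2 had a log2 odds ratio of -0.01, with an interval that held 0 (-0.30 to 0.27), and that of SUCLG1 to SUCLG2 was higher in steers, at 0.69 (0.47 to 0.91).

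Succinate dehydrogenase is both a cycle enzyme and complex II of the respiratory chain, and SDHB carries its iron-sulfur clusters. SDHB had 1421 counts in steers against 1121 in bulls, or 112 CPM (106 to 118) and 114 CPM (107 to 120). The intervals of the 2 levels overlap almost wholly, and the log2 fold change was 0.22 (0.11 to 0.33) with size factors and -0.02 (-0.13 to 0.09) with total counts. SDHC, a membrane anchor of the complex, was at 0.23 (-0.03 to 0.49) with 279 and 219 counts and did not pass. The ratio of SDHB to SDHC was 5.09 in steers and 5.12 in bulls. SDHD was not analysed here.

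FH, the fumarase that hydrates fumarate to malate, had 516 counts in steers against 470 in bulls, or 40.7 CPM (37.3 to 44.4) and 47.6 CPM (43.4 to 52.1). It was the member furthest from the others, at a log2 fold change of 0.01 (-0.17 to 0.20), and -0.23 (-0.41 to -0.04) with total counts, where it fell. Within each library FH held 4.86% (4.46 to 5.29) of the counts of the 7 members in steers and 6.14% (5.61 to 6.70) in bulls, a log2 odds ratio against the other 6 of -0.36 (-0.54 to -0.17). By the same measure SDHB was also lower, at -0.15 (-0.27 to -0.03), OGDH was higher, at 0.11 (0.02 to 0.21), and the intervals of the other 4 held 0. The ratio of FH to MDH2, the enzyme of the next step, was 0.171 in steers and 0.217 in bulls, a log2 odds ratio of -0.34 (-0.54 to -0.14). Further ratios of FH were added after the counts had been seen, reuse the same FH counts and are no separate support. They were lower in steers against CS, IDH3A, OGDH and SUCLG1. Against SDHB the interval held 0, at -0.21 (-0.42 to 0.01).

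MDH2 had the most counts of the members, 3017 in steers and 2166 in bulls, or 238 CPM (230 to 247) and 219 CPM (210 to 229). The intervals do not overlap, and the log2 fold change was 0.36 (0.28 to 0.44), or 0.12 (0.04 to 0.20) with total counts. MDH1, the cytosolic malate dehydrogenase of the malate-aspartate shuttle, rose by 0.19 (0.04 to 0.33) from 709 to 879 counts. The ratio of MDH2 to MDH1 was 3.43 in steers and 3.06 in bulls, and the lower bound of its odds ratio of 1.12 (1.00 to 1.26) lay at equality.

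**Figure D2:**
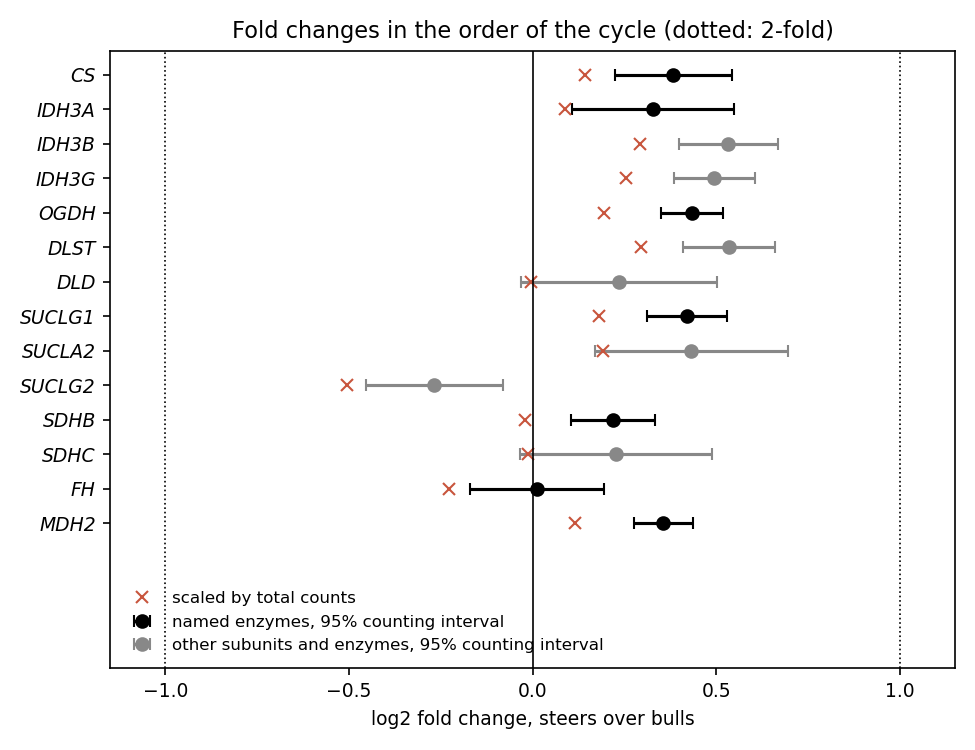
Log2 fold changes (steers over bulls) of the 14 cycle genes reported here, in the order of the cycle, with 95% counting intervals after median-of-ratios scaling (circles) and the values after scaling by total counts (crosses). The genes lie between -0.27 for SUCLG2 and 0.53 for DLST, all inside the dotted 2-fold lines.

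Among the 14 cycle genes reported here, members and other subunits together, 10 rose, 1 fell and 3 did not pass, and 0 differed by 2-fold. All 14 lie among the 8010 genes with 100 counts or more in both libraries, of which 33.0% rose. Over all tested genes 20.4% rose and 18.9% fell. For genes of the lists below with 100 counts or more in both libraries, 33.0% is the nearer background for a rise. The matching share for a fall was not computed. With total counts 6 rose, FH and SUCLG2 fell and 6 did not pass. The share of all genes past counting error is not given for that scaling. The 7 that are not members had a median log2 fold change of 0.43, and 0.19 with total counts, compared with 0.36 and 0.12 for the members. A ratio of 2 genes within a library does not depend on the scaling. Of 16 listed pairs of partner genes, 11 had both genes in the table, and the interval of the odds ratio excluded equality in 5 of the 11. These were the pairs SUCLG1/SUCLG2, SUCLA2/SUCLG2, FH/MDH2, MDH2/MDH1 and CS/ACLY. The remaining 6 had intervals that held equality, which does not show that the genes moved alike. The intervals are not adjusted for the number of pairs.

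**Figure D3:**
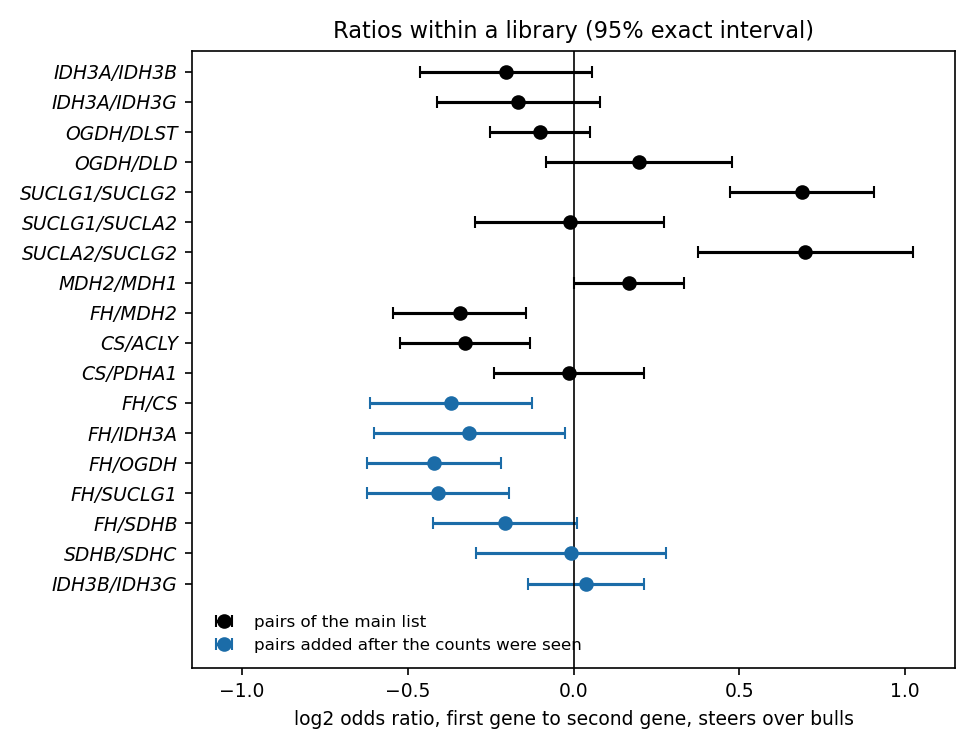
Log2 odds ratios of 18 pairs of genes, the ratio of the first gene to the second in steers over that in bulls, with exact 95% intervals. The 2 pairs with SUCLG2 in second place lie to the right of 0, at 0.69 and 0.70, and the 6 pairs with FH in first place lie to its left, between -0.42 and -0.21. The 6 pairs with FH share its counts.

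Among those 8010 genes with 100 counts or more in both libraries, the middle 50% had log2 fold changes from -0.21 to 0.32. OGDH, SUCLG1, CS, MDH2 and IDH3A lay above that range, 5 of the 7 members, and SDHB and FH lay within it. OGDH stood above 83.2% of these genes, IDH3A above 75.7% and FH above 44.7%.

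**Figure D4:**
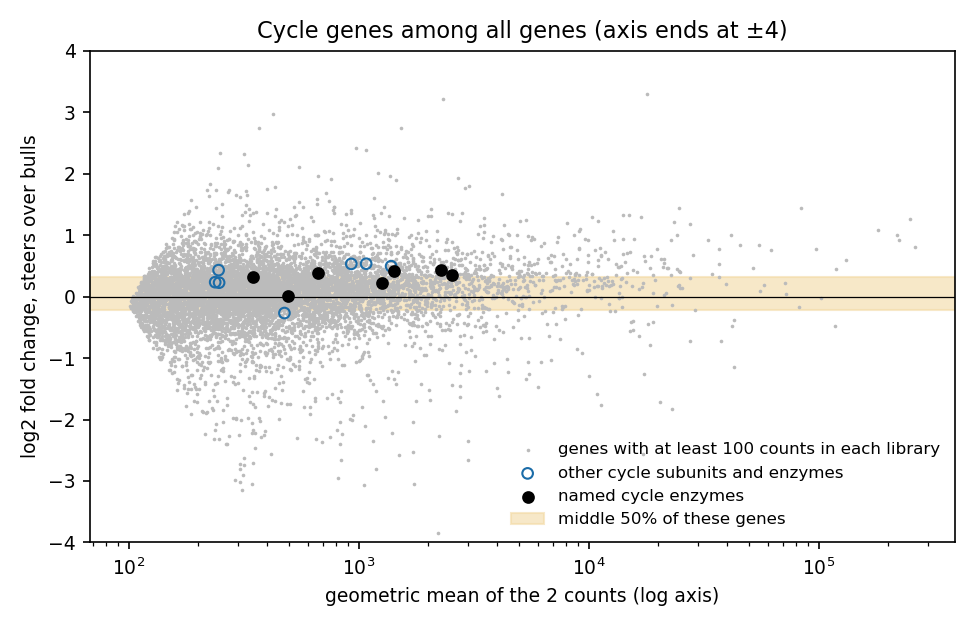
Log2 fold change (steers over bulls) against the geometric mean of both counts (log axis) for the 8010 genes with at least 100 counts in each library (grey), the 7 named cycle enzymes (black) and the other cycle genes (open blue). The shaded band is the middle 50% of the grey genes, and 5 of the 7 named enzymes lie just above it.

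At the entry to the cycle, the pyruvate dehydrogenase complex turns pyruvate into acetyl-CoA. Of its 4 genes besides DLD, PDHA1 and PDHX rose, and their median log2 fold change was 0.32, or 0.08 with total counts. PDHA1, the catalytic alpha subunit, was at 0.40 (0.24 to 0.56) with 772 and 539 counts. The log2 odds ratio for CS over PDHA1 was -0.01, with an interval that held 0 (-0.24 to 0.21). PDHB, its partner subunit, was at 0.07 (-0.12 to 0.26) with 506 and 443 counts. The kinases that switch the complex off, the phosphatase PDP1 that switches it on and the phosphatase regulatory subunit PDPR were 6 genes. Of these 2 rose, PDP1 at 0.60 (0.30 to 0.91) and PDPR at 0.26 (0.08 to 0.44), 1 fell and 3 did not pass. The one that fell was PDK4, the kinase induced by fasting and fatty acids, at 2495 counts in steers against 6424 in bulls, and its log2 fold change of -1.49 (-1.55 to -1.42) was past 2-fold. PDK2, the next most frequent, was at -0.03 (-0.19 to 0.13) with 657 and 616 counts. With total counts PDK4 was at -1.73, so its direction did not depend on the scaling.

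At the exit of citrate, SLC25A1, the carrier that takes citrate out of the mitochondrion, rose by 1.97 on the log2 scale (1.84 to 2.09), from 662 counts in bulls to 2818 in steers. ACLY, which cuts the exported citrate into acetyl-CoA, rose by 0.71 (0.60 to 0.83) from 984 to 1753 counts. The ratio of CS to ACLY was 0.450 in steers and 0.565 in bulls, an odds ratio of 0.797 (0.695 to 0.913). Relative to CS mRNA, ACLY mRNA was thus more frequent in the steers library. In this list of 8 cytosolic counterparts and export genes, 5 rose, 0 fell and 1 was over 2-fold higher, and the median was 0.25, or 0.01 with total counts. ACO1 and IDH1, the cytosolic aconitase and isocitrate dehydrogenase, were at -0.06 (-0.18 to 0.06) and 0.31 (0.15 to 0.48).

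Of 13 genes that fill or drain the cycle, 9 rose and 0 fell, and 3 were over 2-fold higher in steers. Over all tested genes 20.4% rose, 18.9% fell and 4.64% were over 2-fold higher. Among genes with 100 counts or more in both libraries 33.0% rose. PCK1, which draws oxaloacetate off to phosphoenolpyruvate and in fat serves glycerol synthesis, rose by 2.42 on the log2 scale (2.26 to 2.57), from 402 counts in bulls to 2337 in steers. BDH1 and OXCT1 are mitochondrial enzymes of ketone body use, and OXCT1 takes its CoA from the cycle intermediate succinyl-CoA. BDH1 rose from 53 counts to 359, a log2 fold change of 2.63 (2.22 to 3.08), and OXCT1 from 270 to 620, one of 1.08 (0.87 to 1.29). OXCT1 was under 2-fold with total counts, at 0.84. GLUL, the glutamine synthetase, and GLUD1, the glutamate dehydrogenase that feeds 2-oxoglutarate, had the most counts in this list over both libraries and were at 0.37 (0.33 to 0.41) and 0.26 (0.17 to 0.35). PCK2, the mitochondrial form of PCK1, had 2616 counts in steers against 1297 in bulls and rose by 0.89 (0.79 to 0.99). The median of the 13 was 0.27, and 0.03 with total counts. PCK1, BDH1 and OXCT1 were the 3 over 2-fold, and 0 of the 14 cycle genes reported here were.

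Other mitochondrial genes gave the scale for the cycle. Of 15 housekeeping proteins of the mitochondrion, 9 rose and 0 fell, with a median of 0.24, or -0.0001 with total counts. PHB2, a prohibitin, was at 0.29 (0.18 to 0.41) and VDAC1, an outer membrane channel, at 0.28 (0.16 to 0.40). Of 14 respiratory chain subunits, 8 rose and 0 fell, with a median of 0.29, or 0.05 with total counts. The ATP synthase subunit ATP5F1B (ATP5B in the table) was at 0.45 (0.40 to 0.51) and COX4I1, of cytochrome c oxidase, at 0.32 (0.25 to 0.39). The cycle members lay close to these lists, and a difference between lists was not tested. Of 7 genes that drive mitochondrial biogenesis, 1 rose and 0 fell, with a median of 0.10, or -0.13 with total counts. The one that rose was TFB2M, at 0.97 (0.58 to 1.39) with 163 and 76 counts, and 0.73 with total counts. POLRMT, the mitochondrial RNA polymerase, was at 0.19 (-0.07 to 0.46), and ESRRA, a nuclear receptor of oxidative genes, at -0.21 (-0.47 to 0.05). With total counts ESRRA was at -0.45 (-0.71 to -0.19). PPARGC1A, with 35 and 45 counts, was at -0.48 (-1.17 to 0.18), and at -0.72 (-1.40 to -0.05) with total counts. Only 1 of the 7 lay above 0 with total counts. The 4 assembly factors of succinate dehydrogenase had 0 rises and 0 falls, and SDHAF2 and SDHAF1, with the most counts, were at 0.23 (0.03 to 0.43) and 0.32 (-0.06 to 0.70). The median of the 4 was -0.29 and their summed counts gave 0.17, of opposite sign, and SDHAF3 and SDHAF4 had at most 30 counts in a library.

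**Figure D5:**
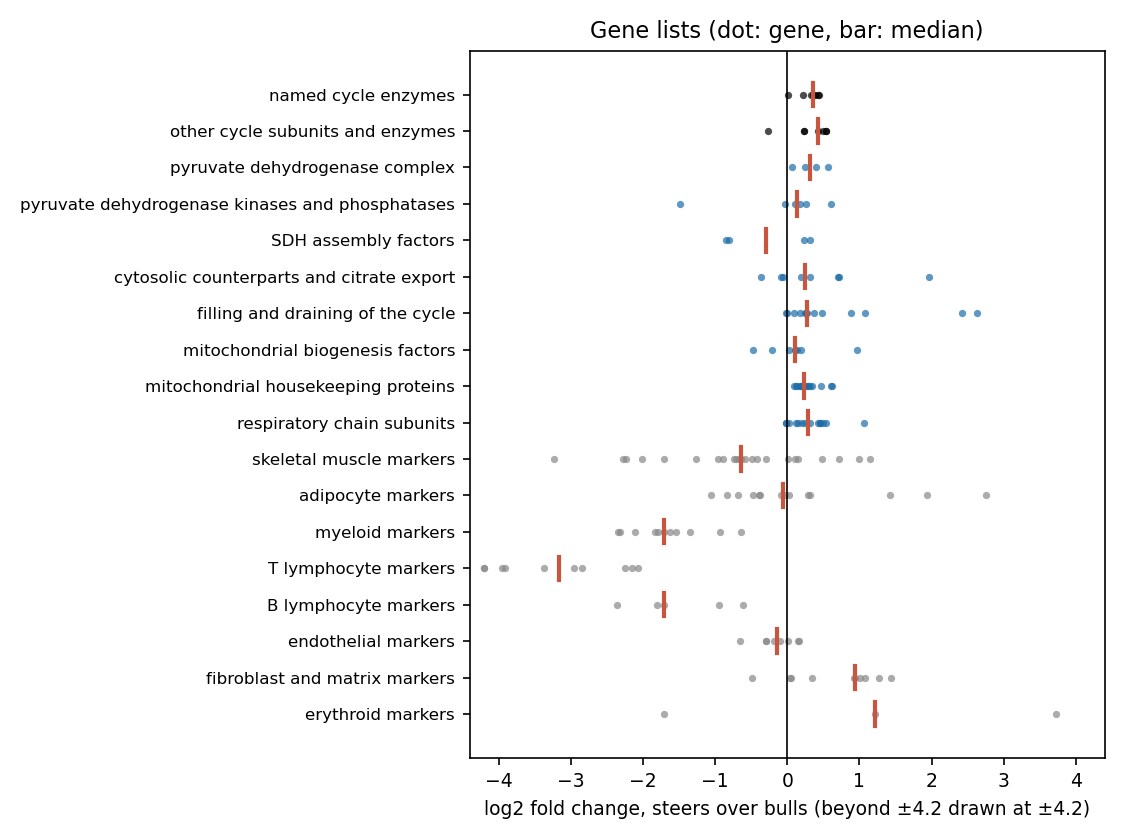
Log2 fold changes (steers over bulls) of the genes in each list (dots) with the median of the list (red bar), for the cycle (black), neighbouring and mitochondrial genes (blue) and cell type markers (grey). The median of the cycle members is 0.36 and that of the respiratory chain subunits 0.29, the SDH assembly factors have a median of -0.29, and all myeloid and T lymphocyte markers lie below 0.

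The make-up of the 2 pools differed in markers of several cell types, and their part in the values of the cycle genes was not tested. Defining markers of adipocytes were frequent in both, at 0.375% of counts over 14 genes in steers and 0.459% in bulls, with 5 rising, 6 falling and a median of -0.05. That median covers a split. CIDEA, THRSP and GPD1 were over 2-fold higher in steers, at 2.75, 1.94 and 1.42, and FABP4 was over 2-fold lower, at -1.06. ADIPOQ, PLIN1, PLIN4, CEBPA and CD36 fell as well, at -0.68, -0.38, -0.48, -0.83 and -0.39. CIDEC and PPARG rose, at 0.28 and 0.32, and LEP, LIPE and AQP7 did not pass. Skeletal muscle, whose oxidative fibres are rich in cycle enzymes, left RNA in both pools, with 23 markers at 0.354% of counts in steers and 0.684% in bulls. Of the muscle markers 4 rose and 16 fell, and the median was -0.65. MYH7 and MYL2, of slow oxidative fibres, were at -2.23 (-2.35 to -2.11) and -2.27 (-2.37 to -2.18). The 4 that rose were of fast fibres, MYH1, from 102 counts to 247, TNNC2, at 1.00 (0.87 to 1.13), ACTN3, at 0.72 (0.56 to 0.87), and TNNI2, at 0.48 (0.33 to 0.62). Genes of fast fibres were among the 16 that fell as well, such as MYL1, at -0.73 (-0.88 to -0.59), and ATP2A1, at -0.29 (-0.38 to -0.21). MYLPF and TNNT3, of fast fibres too, did not pass. MYH2, of fast oxidative fibres, was at 0.01 (-0.05 to 0.06). The 11 myeloid markers all fell, from 0.863% of counts in bulls to 0.264% in steers, with a median of -1.70. The 10 T lymphocyte markers all fell as well, from 918 counts to 110, and CD3G was at 0 in steers. B lymphocyte markers had 26 counts in steers and 97 in bulls, with CD79B and MS4A1 at 0 in both, and 2 of 5 with counts fell. Of the 8 endothelial markers 1 rose and 3 fell, with a median of -0.14. Of the 10 fibroblast and matrix markers 8 rose and 1 fell, with a median of 0.94. Erythroid markers had 37 and 8 counts, with ALAS2 at 0 in both, and 1 rose.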

How the data were processed

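The mRNA values, as deposited by the authors, are raw counts per gene, without normalization. Ion Proton reads had been cleared of adaptors and poor-quality sequence and placed on the bovine genome by MapSplice. The program used for counting, its use of strand and its handling of reads with several matches are not given in the sources used here, so reads shared with overlapping genes or near-identical copies may be split or lost. The submitters' notes also list a human genome build, with no role, and BWA, which the study's methods name for the small RNA reads. The miRNA libraries were not used.

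Columns were assigned by library title. Size factors (median of ratios), exact binomial tests (two-sided), Benjamini-Hochberg adjustment (all genes with a count of 1 or more in steers or bulls) and Clopper-Pearson intervals came from numpy 2.4.6 and scipy 1.17.1. Folds used a prior of 0.5 counts, intervals none. A gene was called over 2-fold where its log2 fold change lay beyond 1 in size with an adjusted p below 0.05, the study's thresholds. With 1 library per group the test compares libraries, not conditions. Odds ratios are conditional estimates with exact intervals. The code was tested on simulated data. Alternatives were other scalings (TMM and upper quartile from edgeR 4.0.16 in R 4.3.3), filters, priors, fold thresholds and an edgeR exact test with an assumed spread.

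The members and lists were chosen with earlier results of these data known. Lists came from general knowledge. One gene of the lists and its pair are not reported here. Named were all members and the remaining cycle genes, and, of other lists, genes over 2-fold (at most 6), the 2 with the most counts and those of the pairs. Marker lists are given mostly as counts, and CD3G, CD79B, MS4A1, ALAS2, PDHX, ACO1, PCK2, MYH2, TNNC2, ACTN3, TNNI2, SDHAF3 and SDHAF4 were named after their values were seen. The same holds for MYL1, ATP2A1, MYLPF, TNNT3, PDP1, PDPR, TFB2M and PPARGC1A. It also holds for ADIPOQ, PLIN1, PLIN4, CEBPA, CD36, PPARG, LEP, LIPE and AQP7. All 7 members are symbols in RefSeq's table of another cattle assembly, whose coordinates were not used.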

Additional observations from a re-analysis of the deposited data

How the results depend on the processing

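No member passed 2-fold under any of the alternatives tried, which were 9 including the 1.5-fold threshold. Scaling by total counts left 3 members higher and 1 lower past counting error, instead of 6 and 0, and moved the members' median log2 fold change from 0.36 to 0.12. It reversed SDHB to -0.0194 and FH to -0.23, and 21.9% of all calls were then upregulated instead of 35.4%. Total counts without the 10 genes with the most counts gave a median of 0.21 and FH at -0.13. FH, whose interval held 0, was also below 0 with TMM factors, at -0.00635, and with at least 10 counts in each library, at -0.00823. The edgeR exact test with an assumed coefficient of variation of 0.2 left 0 members higher at any fold and 368 and 762 genes over 2-fold higher and lower among all, against 823 and 1500, and with 0.4 it left 0 members and 52 and 93 genes. At least 10 counts in each library gave 432 and 998 genes, and the 1.5-fold threshold 1714 higher. Scaling by total counts lowers every log2 fold change by the same 0.24, and at the assumed spreads folds as small as the members' cannot pass. Why the scalings of the 2 libraries differ was not tested. Upper-quartile factors and a prior of 5 counts changed no direction of a member. Adding 0.5 to each count moved no odds ratio outside its interval, but with counts of this size it could not have done so. No paired analysis was possible because the mRNA data have 1 library per group. Depth limits DLD, SDHC and SUCLA2 among the cycle genes, with under 300 counts each in either library, and SDHAF3 and SDHAF4, with at most 30.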
